A study of Equus caballus with 22 samples.

Results

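Articular cartilage and synovium from the metacarpophalangeal (fetlock) joint of young horses were compared by sequencing of transcript 3′ ends. The comparison uses 11 of the 22 libraries of the study, 6 from young cartilage and 5 from young synovium, chosen by tissue and age label. The libraries of old horses (6 cartilage, 5 synovium) enter only as separate samples in which the results were looked up. All samples were snap-frozen wild-type tissue, all carry the same batch label, and the labels give age only as young or old. Nothing in the labels says whether both tissues came from the same horses or whether each sample is a separate animal, so the p-values measure the spread between these samples. A label shared by all groups also names a treatment of cells with 4sU, which does not match the frozen tissue.

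Articular cartilage is a tissue without blood vessels in which chondrocytes, its only resident cell type, keep up a matrix of type II collagen and the proteoglycan aggrecan. Synovium is a vascular membrane of lining fibroblasts and macrophages over a layer that also holds endothelial and other cells, and it makes the lubricating joint fluid. Many genes end their transcripts at more than 1 polyadenylation site. Use of a proximal site gives a shorter transcript and a distal site a longer one, and where both lie in the last exon they differ only in the length of the 3′ untranslated region.

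The values were raw read counts per 3′ site, a short interval assigned to a gene by an Ensembl identifier. The files do not pair identifiers with symbols, and 0 of 22613 identifiers matched the reference table of gene names, so genes are given by identifier and position (EquCab3.0), levels are in CPM, the counts of a gene scaled to a common library total, and the tissues could not be checked against chondrocyte or synovial markers. The 15 gene lists chosen for joint tissue, with 154 genes, could not be read for the same reason. Total counts ran from 2132898 to 3167402 in the cartilage libraries and from 3756789 to 4403357 in the synovium libraries. In bulk tissue, fewer cells of a type and less RNA per cell cannot be told apart.

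Each tissue was deposited in a table of its own, and the tables do not list the same sites. There are 138134 sites listed for cartilage and 262643 for synovium, and 14621 of 22613 genes occur in both. Genes listed for cartilage alone numbered 2657 and held 11.8% of the young cartilage counts, and genes listed for synovium alone numbered 5335 and held 17.5% of the young synovium counts. Among sites listed for both tissues, a high count in one rarely went with a count near 0 in the other. Of 2168 cartilage sites with at least 1000 counts over the young libraries, 578 (26.7%) overlapped no synovium site. Among the 1590 that did, only 7 had 0 counts in young synovium, 17 had 1 to 10, and 1529 had over 100. In the other direction, 769 of 3315 such synovium sites (23.2%) overlapped no cartilage site, and of those that did 4 had 0 counts, 3 had 1 to 10 and 2509 had over 100. The most counted gene of young synovium, with its main site at chr10:28928650-28929966 (+) and 2.01% of that tissue's counts, has no row in the cartilage table used here. Tissue differences were therefore computed both on all sites of the 14621 shared genes and on the 75774 matched sites, those of the same gene and strand whose intervals overlap between the tables. Any overlap was enough, and 65983 of them matched 1 to 1 with at least 50% overlap of both intervals.

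The libraries of the tissues differed in how many sites and genes their counts reached. When each library was scaled down to the same total of 2132898 counts, 32328 ± 5129 sites (SD, n = 6) were expected in cartilage and 72081 ± 10579 (SD, n = 5) in synovium, with no overlap between the groups (two-sided exact permutation test with p = 0.00216, or 0.00505 when adjusted over 7 measures). For genes in both tables, at 1893218 counts, the numbers were 9739 ± 659 (SD, n = 6) and 12116 ± 228 (SD, n = 5; two-sided exact permutation test, p = 0.00433, adjusted 0.00758). Cartilage put more of its counts on few genes. The 100 most counted genes held 31.2% ± 3.13 (SD, n = 6) of the counts in cartilage and 25.3% ± 2.99 (SD, n = 5) in synovium, with overlapping ranges (two-sided exact permutation test, p = 0.0173, adjusted 0.0242). Sites seen in a single young library held 6.25% ± 1.18 (SD, n = 6) of the cartilage counts and 1.33% ± 0.555 (SD, n = 5) of the synovium counts (two-sided exact permutation test, p = 0.00216, adjusted 0.00505). Sites were counted on each tissue's own list, of 138134 for cartilage and 262643 for synovium, and single-library sites over 6 and 5 libraries. The part of these unequal lists in the differences was not tested. These library properties go with tissue in every sample, so properties of the tissue, the libraries and the site lists cannot be told apart. Their part in the results below was not tested.

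**Figure D1:**
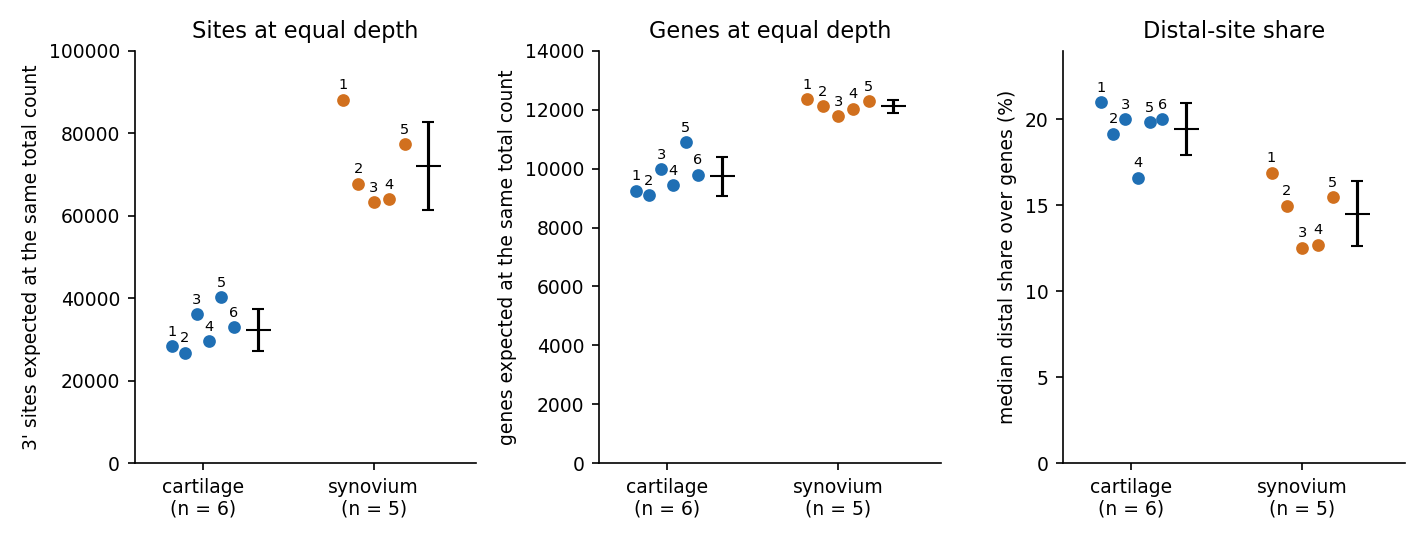
Each point is 1 young library, numbered by its replicate, with the group mean and SD beside it. The left and middle panels give the number of 3′ sites and genes expected at the same total count, where cartilage lies below synovium in every library. Sites are counted on each tissue's own list. The right panel gives the distal share, explained with its values in the text, where cartilage 4 (16.6%) lies just below synovium 1 (16.9%).

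At matched sites, 507 of 8309 tested genes (6.1%) were higher in cartilage and 362 (4.36%) were lower, by edgeR's quasi-likelihood test at a Benjamini-Hochberg adjusted p under 0.05. Together these are 10.5% of the genes tested. The called genes that were higher in cartilage had a median log2 change of 2.09, and 265 of them passed 2 on the log2 scale and 73 passed 5. Those lower in cartilage had a median log2 change of -1.53, with 112 past 2 and 28 past 5 in size. The median log2 change over all tested genes was -0.04, and the middle 50% of them lay between -0.67 and 0.60. Cartilage and synovium libraries did not overlap for 368 of the 507 higher genes and 292 of the 362 lower ones. Over all tested genes, called or not, cartilage lay wholly above synovium for 5.13% and wholly below for 5.92%.

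**Figure D2:**
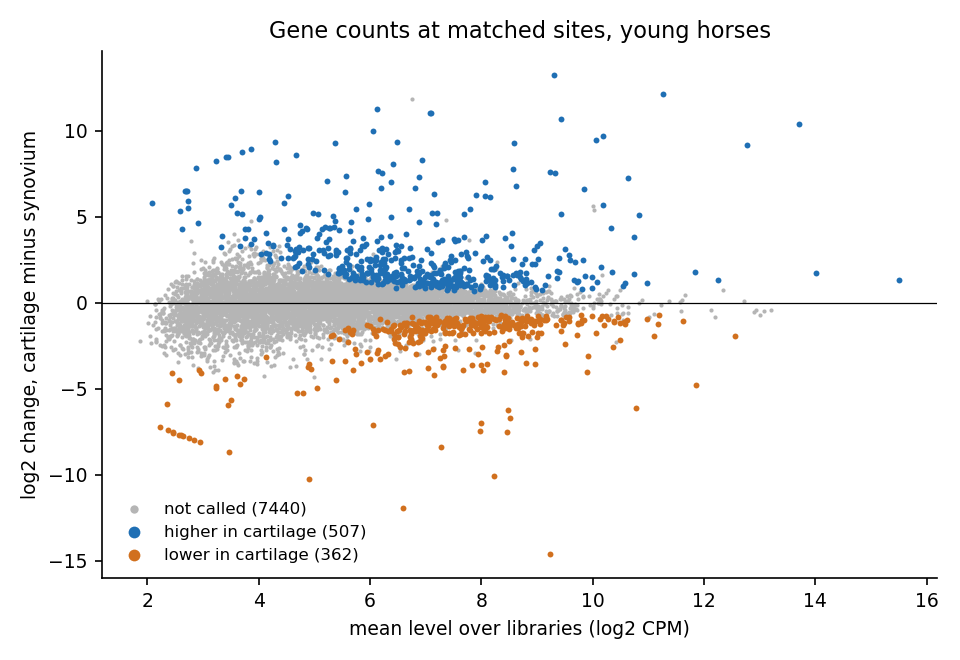
Each point is a gene summed over its matched sites, with its mean level on the x axis (log2 CPM) and its log2 change, cartilage minus synovium, on the y axis. Blue marks the 507 genes called higher in cartilage, orange the 362 called lower and grey those not called. Calls become denser to the right.

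The balance of higher to lower genes depended on the test, while the direction of each called gene did not. With DESeq2's Wald test 701 genes were higher and 538 lower, and with limma-voom with a weight per tissue 554 were higher and 862 lower. Of the 869 genes called by edgeR, 865 were called in the same direction by DESeq2 and 804 by limma-voom, and 0 in the opposite direction by either. The median log2 change over all genes was -0.46 in the limma-voom fit, which averages on the log scale. The spread differed between the tissues. Among 6359 genes with at least 10 CPM in both tissues, the median coefficient of variation was 54.5% in cartilage and 28.0% in synovium, and it was larger in cartilage for 5425 genes. Estimated by edgeR across all tested genes, the biological coefficient of variation came to 1.02 for cartilage and 0.375 for synovium.

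Summing every listed site gave more calls and larger changes. On all sites, 1132 of 9380 tested genes (12.1%) were called higher in cartilage and 738 (7.87%) lower, 19.9% in all, with the same edgeR test. Without overlap between the libraries, 9.18% of all tested genes lay higher and 8.52% lower. With scaling by library size alone, 938 were higher and 1095 lower, and the median log2 change over all genes moved from -0.05 to -0.30. Of the 1870 all-site calls, 822 (44.0%) were also called at matched sites, where they make up 94.6% of the 869 calls, and 3 of the 822 had the opposite sign. Of all 1437 all-site calls that were tested at matched sites, called there or not, 130 had the opposite sign there, and 433 could not be tested. Calls were most frequent where few of the counts lay at matched sites. Where at most 10% of the counts in the higher tissue were at matched sites, 78.4% of 607 genes were called, and 38.3% of 826 genes where 10 to 50% were. The shares were 12.7% of 2351 genes at 50 to 90% and 13.9% of 5596 genes at more than 90%. Of 437 all-site calls with a log2 change past 5, 322 had at most 10% of the higher tissue's counts at matched sites. Among 4552 genes with at least 90% of their counts at matched sites in both tissues, 313 were called higher and 335 lower, 14.2% in all.

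**Figure D3:**
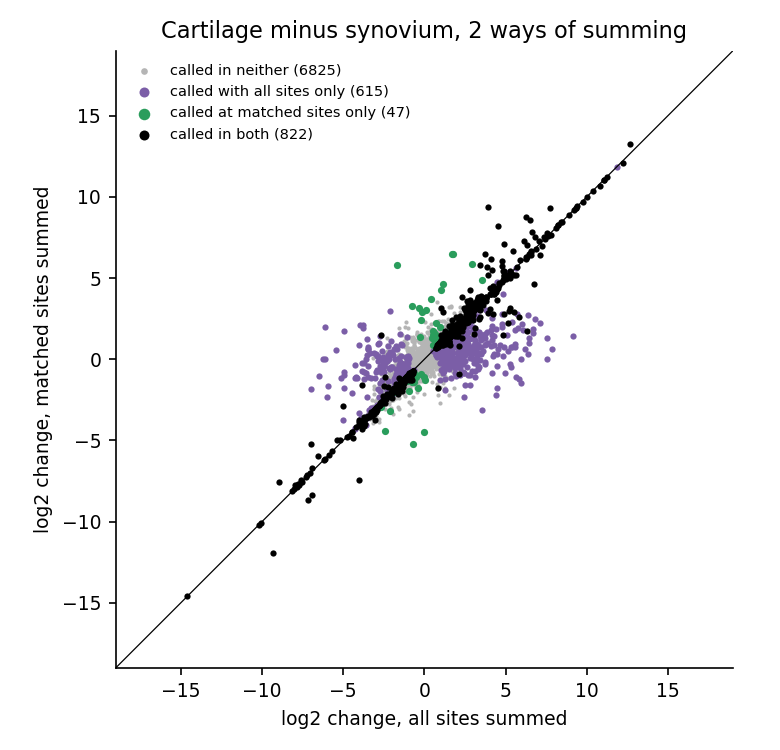
For genes tested both ways, the log2 change with all sites summed (x axis) is plotted against the log2 change with matched sites summed (y axis), with the line of equal values. Black points (822) were called both ways and lie near the line, while violet points (615), called with all sites alone, mostly spread along the x axis near 0 on the y axis.

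The 4 genes with the largest all-site changes differ in whether their main site is listed for both tissues. The gene with the largest rise in cartilage had its main site at chr25:29395884-29396095 (+) and 15884 to 23203 counts in each cartilage library against 0 in all 5 synovium libraries. That site overlaps no row of the synovium table, whose nearest site for the gene lies 143 nt away, so its level in synovium was not measured here. The next largest rise, at chr3:115005721-115005897 (+), had 6125 to 49030 counts in each cartilage library and 1 count in all of synovium, and its main site also has no row in the synovium table. The same holds for the second largest fall, at chr21:2048385-2048549 (-), which had 1848 to 2738 counts in each synovium library and whose nearest cartilage site lies 20362 nt away. The largest fall, ENSECAG00000031980, was at a matched site and is described next.

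The genes with the largest changes at matched sites had counts at or near 0 in most or all libraries of 1 tissue. How far the rows of the tables overlap at these sites is not given here. A count near 0 may therefore come from a row that covers another part of the gene's end. ENSECAG00000014778, with its main site at chr3:27039701-27039827 (-), had 1249, 2247, 1488, 5043, 1126 and 1441 counts in cartilage libraries 1 to 6, and 0, 0, 1, 0 and 0 counts in synovium libraries 1 to 5. Its level was 1158 ± 662 CPM (SD, n = 6) in cartilage and 0.0751 ± 0.168 CPM (SD, n = 5) in synovium, and the groups did not overlap (edgeR's quasi-likelihood test, Benjamini-Hochberg adjusted p = 3.29e-09). From the summed counts, the cartilage level was 17996 times the synovium level, with a 95% counting interval of 3229 to 710875 that covers counting error only. ENSECAG00000022313, at chr6:66515575-66515720 (+), was also higher in cartilage, by a log2 change of 12.11 (SE 2.09; edgeR's quasi-likelihood test, Benjamini-Hochberg adjusted p = 0.00365). Its cartilage levels were 250, 1119, 180, 23575, 1240 and 834 CPM, and its synovium levels 3.32, 0, 0.751, 0 and 0.680 CPM. Cartilage 4 stood far above every other cartilage library. Without it the log2 change was 9.46 (adjusted p = 4.83e-06 by the same edgeR test), and without synovium 1 it was 13.50 (adjusted p = 0.0134). Over all 11 libraries, a two-sided exact permutation test on CPM gave p = 0.294.

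ENSECAG00000031980, with its matched site at chr28:18849481-18850584 (+), went the other way. It had 0 counts in all 6 cartilage libraries and 4387, 3572, 3135, 5699 and 3314 counts in synovium libraries 1 to 5. The synovium mean of 1318 ± 321 CPM (SD, n = 5) was at least 781-fold higher than the cartilage level, taking 3 counts per library as the limit that a count of 0 allows (edgeR's quasi-likelihood test, Benjamini-Hochberg adjusted p = 5.41e-09). ENSECAG00000006095, with its main site at chr24:47247261-47248039 (+), also had 0 counts in every cartilage library. Its synovium levels of 21.7, 197, 43.2, 756 and 26.5 CPM varied widely, with synovium 4 the highest, and were on average at least 124-fold higher than in cartilage (edgeR's quasi-likelihood test, Benjamini-Hochberg adjusted p = 0.00965). Without synovium 4 the limit was 42.7-fold (adjusted p = 0.000905 by the same edgeR test). With limma-voom with a weight per tissue its adjusted p was 0.0604.

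**Figure D4:**
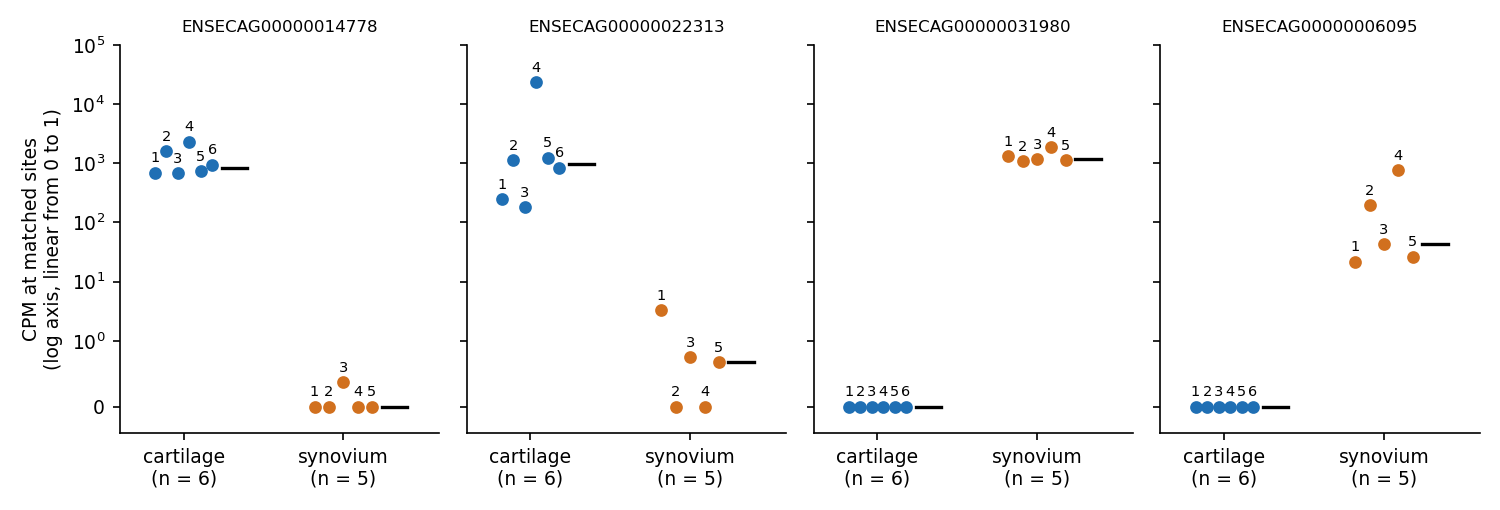
Levels in CPM at matched sites (log axis, linear from 0 to 1) for the 4 genes with the largest changes that met the naming rule. Each point is 1 young library, numbered by replicate, and the bar is the group median. The groups are apart for each gene, and cartilage 4 for ENSECAG00000022313 (23575 CPM) and synovium 4 for ENSECAG00000006095 (756 CPM) lie far above the rest of their groups.

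The most counted transcripts of the tissues overlapped in part. At matched sites, 6 of the 10 highest genes of each tissue were shared, and 56 of the 100 highest. With all sites summed, 2 of the 10 and 42 of the 100 highest were shared. Mean levels (log2 of CPM + 1) correlated across the tested genes with Pearson's r of 0.780 and Spearman's rho of 0.814 at matched sites, and of 0.593 and 0.662 with all sites, a description across genes, which are not independent replicates. Among the 14621 shared genes, the same gene ranked first in both tissues, with its main site at chr15:45978619-45978732 (-). It had 42338, 75462, 48168, 29703, 63236 and 64760 CPM in cartilage and 8961, 21625, 31137, 34085 and 11425 CPM in synovium. Its cartilage level was higher, with overlapping groups, by a log2 change of 1.33 (SE 0.34; edgeR's quasi-likelihood test at matched sites, Benjamini-Hochberg adjusted p = 0.0178).

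Other abundant transcripts of cartilage were far lower in synovium. Levels of these genes are for all sites, of which matched sites held at least 99% except for the fourth gene, the one at chr3:115005721-115005897 described above. The second most counted cartilage gene, with its main site at chr15:3766372-3766605 (+), had 12101, 15958, 28321, 11438, 14618 and 42093 CPM in cartilage and 14.9, 6.76, 37.6, 5.87 and 12.6 CPM in synovium, where it ranked 6451. Its log2 change at matched sites was 10.36 (SE 0.67; edgeR's quasi-likelihood test, Benjamini-Hochberg adjusted p = 3.7e-08). The fifth, at chr16:46755077-46755368 (+), had a mean of 10836 ± 2654 CPM (SD, n = 6) against 18.5 ± 7.48 CPM (SD, n = 5), a log2 change of 9.18 at matched sites (SE 0.37; edgeR's quasi-likelihood test, Benjamini-Hochberg adjusted p = 2.28e-10). The third, at chr7:27373075-27373287 (-), was abundant in both, with 20235 ± 5582 CPM (SD, n = 6) in cartilage and 6125 ± 2730 CPM (SD, n = 5) in synovium, and ranked 9 in synovium. Its groups did not overlap, and it was higher in cartilage by a log2 change of 1.72 at matched sites (SE 0.31, edgeR's quasi-likelihood test, Benjamini-Hochberg adjusted p = 0.00145).

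The most counted synovium genes among those listed for both tissues were also abundant in cartilage. The synovium gene with the most counts of all, named above, has no row in the cartilage table and is not ranked here. Those ranked 2, 3 and 4 in synovium ranked 11, 19 and 13 in cartilage. Their log2 changes at matched sites were -0.43, -0.72 and -0.48, and none passed the threshold (edgeR's quasi-likelihood test, Benjamini-Hochberg adjusted p = 0.296, 0.148 and 0.232). The gene ranked 5, at chr21:2217390-2217802 (-), had 5104, 9324, 10185, 9884 and 7468 CPM in synovium against 1525 to 3525 CPM in cartilage, and was lower in cartilage by a log2 change of -1.93 (SE 0.26; edgeR's quasi-likelihood test at matched sites, Benjamini-Hochberg adjusted p = 0.000122).

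Calls were concentrated among abundant genes and lay on all 32 chromosomes listed. With the tested genes split into 4 equal groups by mean level, of the 2078 genes in the highest group 24.5% were called, 248 higher and 262 lower in cartilage, against 2.84% of the 2077 genes in the lowest, 34 higher and 25 lower. The size of the log2 change went the other way, with a median of 0.535 over the highest group and 0.855 over the lowest. The share called ran from 6.17% of 227 genes on chromosome 9 to 16.8% of 202 genes on chromosome 12. Genes with 6 or more matched sites were called higher in cartilage for 7.31% of 3967 and lower for 3.20%, while for genes with 2 to 5 matched sites the shares were 4.39% and 5.09% of 3461, and for genes with 1 matched site 7.38% and 6.70% of 881.

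The choice of 3′ site within a gene also differed between the tissues, at few sites. Of 9808 matched sites in 3368 genes with at least 2 tested sites, 55 (0.561%) were used more in cartilage relative to the rest of their gene and 61 (0.622%) less, 1.18% in all (edgeR's diffSpliceDGE, Benjamini-Hochberg adjusted p under 0.05). These lay in 109 genes, and a Simes p-value for each gene, adjusted over genes, passed the threshold for 109 (3.24%). The raised sites had a median share of 41.6% of their gene's tested-site counts in cartilage and 0.876% in synovium. The lowered sites had a median share of 0% in cartilage and 26.9% in synovium. A site could pass the count filter through the libraries of 1 tissue alone, so these medians can include sites admitted by the tissue where they are high. Of the 109 genes with a called site, 37 were also called for their summed counts at matched sites. Without 1 of cartilage libraries 2 to 6, the raised sites numbered 53 to 58 and the lowered sites 93 to 110, against 55 and 61 with all libraries. The number of called sites fell to 76 without synovium 4 and to 65 without synovium 5, and was 680 with limma-voom and 68 when sites had to match 1 to 1 with 50% overlap.

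Raised sites were often the most distal of their gene. Of the 55 sites raised in cartilage, 28 were the most distal tested site and 9 the most proximal, and of the 61 lowered sites 15 were the most distal and 27 the most proximal. Most distal sites made up 34.3% of all tested sites. With at least 10 counts required in every library, 1006 sites were tested, 30 were raised in cartilage and 1 was lowered. Of the 30 raised sites 27 were the most distal, against 45.1% of the sites tested. The 61 lowered sites had a median share of 0% in cartilage, and this filter leaves out by rule any site without counts there. The split of 30 to 1 therefore cannot be read as a direction of site use.

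Of the 109 genes, 5 had sites called in both directions, and 4 of these are described by the naming rule. ENSECAG00000024205 lies on the plus strand of chromosome 25, and its 2 tested sites are 632 nt apart. The distal site, chr25:29663866-29664456, took 100, 100, 100, 100, 89.5 and 100% of the tested-site counts in cartilage, and 0.146, 0.0742, 0.204, 0.0283 and 0.100% in synovium, where the proximal site, chr25:29663541-29663824, took 99.9% ± 0.0675 (SD, n = 5). The shares rested on 32 to 111 counts at the distal site per cartilage library and on 10262 to 14151 counts at the proximal site per synovium library. The distal site's log2 change relative to the gene was 6.83 and the proximal site's -4.57 (edgeR's diffSpliceDGE, Benjamini-Hochberg adjusted p = 1.26e-05 and 2.01e-09). All 4 cartilage counts at the proximal site came from cartilage 5, and without that library the proximal site's log2 change was -6.68. The distal site joined 2 rows of the synovium table. At the proximal site the cartilage row covers only 107 of the 284 nt of the synovium row. The rest of that interval has no row for cartilage, so this share may compare different sites. Neither site was tested when sites had to match 1 to 1 with 50% overlap.

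ENSECAG00000003758, on the plus strand of chromosome X, moved the same way over a longer distance. The more distal site, chrX:126765485-126765994, held 99, 70.8, 67.3, 76.3, 84.4 and 62.5% of the counts in cartilage and 3.86, 2.35, 2.66, 2.79 and 3.28% in synovium. The site 1909 nt upstream, chrX:126763904-126764085, held 15.4% ± 8.88 (SD, n = 6) in cartilage and 96.8% ± 0.572 (SD, n = 5) in synovium. The groups did not overlap at either site (edgeR's diffSpliceDGE, Benjamini-Hochberg adjusted p = 1.86e-07 for the distal and 0.000164 for the proximal site). The distal counts were similar, 198 to 622 per cartilage library and 553 to 923 per synovium library, while the proximal counts were 6 to 187 and 17590 to 32070.

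In the other 2 genes the site used more in cartilage was the proximal one. For ENSECAG00000005146, on the plus strand of chromosome 25, the proximal site at chr25:35587981-35588030 held 72.7% ± 25.7 (SD, n = 6) of the counts in cartilage and 0.876% ± 1.39 (SD, n = 5) in synovium. The site 31768 nt downstream, chr25:35619687-35619798, had 0 counts in every cartilage library and 17 to 35 in each synovium library, a share of 32.6% ± 6.46 (SD, n = 5). Both changes passed the threshold (edgeR's diffSpliceDGE, Benjamini-Hochberg adjusted p = 0.0247 and 0.00971), on 23 to 46 counts per cartilage library at the proximal site. The call at the proximal site was lost when any 1 synovium library was left out, with adjusted p from 0.0601 to 0.206 by the same edgeR test. With no filter on low counts neither site was called (adjusted p = 0.202 and 0.183 by the same edgeR test).

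For ENSECAG00000020180, on the minus strand of chromosome 4, the site at chr4:59857748-59858380 held 75.6% ± 7.75 (SD, n = 6) of the counts in cartilage and 0.112% ± 0.251 (SD, n = 5) in synovium. The rows of the tables overlap there by only 6 nt, of 479 nt in the cartilage row and 160 nt in the synovium row, and the rest of the cartilage interval has no row for synovium, so this share may compare different sites. The site 1629 nt further distal, chr4:59856119-59856246, held 2.31% ± 2.56 (SD, n = 6) in cartilage and 34.6% ± 9.89 (SD, n = 5) in synovium (edgeR's diffSpliceDGE, Benjamini-Hochberg adjusted p = 0.0168). When sites had to match 1 to 1 with 50% overlap, the proximal site was not tested and the distal one was not called (adjusted p = 0.842 by the same edgeR test). The distal call was also lost without synovium 2, 4 or 5 (adjusted p = 0.0622, 0.0637 and 0.115 by the same edgeR test) and with no filter on low counts (0.176).

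**Figure D5:**
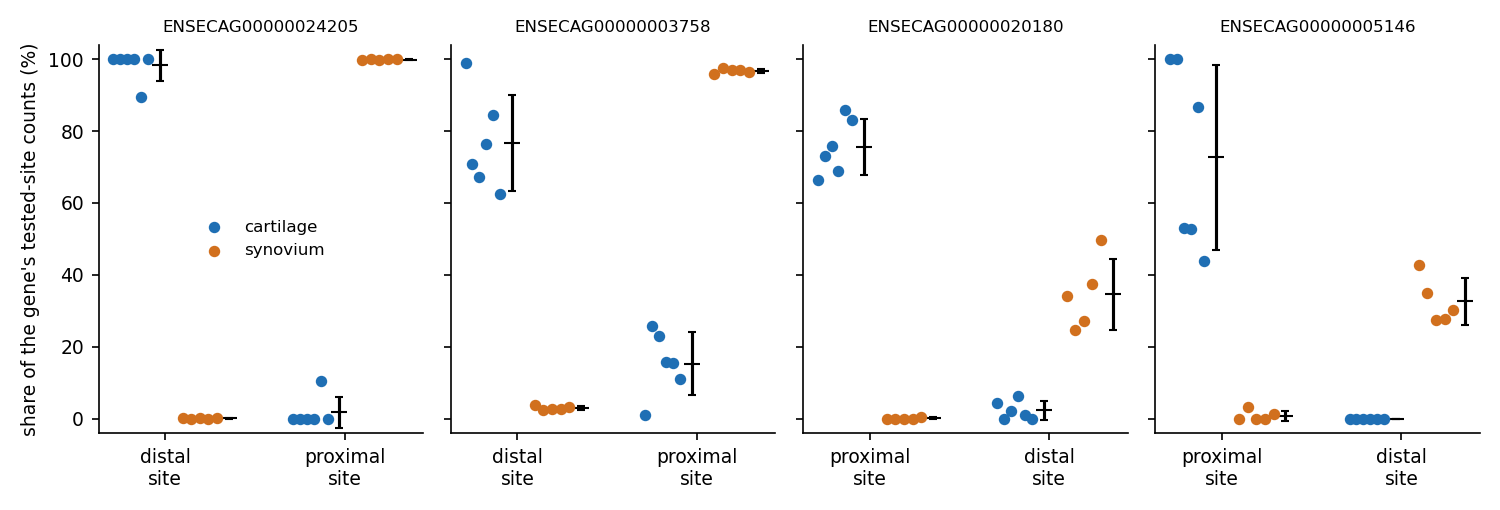
Share of a gene's tested-site counts (%) at the site used more in cartilage (left pair in each panel) and at the site used less (right pair), for 4 genes with calls in both directions. Points are young libraries, blue for cartilage and orange for synovium, with the mean and SD beside them. The distal site gains in cartilage in the 2 left panels, and the proximal site in the 2 right panels.

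Over many genes, distal sites took a larger share in cartilage. Taking 2317 genes with at least 2 tested matched sites, and with no library under 10 counts, the share of the counts that fell at the most distal of these sites was computed per gene. Its median over genes was 21.0, 19.2, 20.0, 16.6, 19.8 and 20.0% in cartilage libraries 1 to 6 and 16.9, 15.0, 12.5, 12.7 and 15.5% in synovium libraries 1 to 5. All cartilage libraries but cartilage 4 lay above every synovium library. The mean was 19.4% ± 1.5 (SD, n = 6) against 14.5% ± 1.87 (SD, n = 5), a difference of 4.91 percentage points (two-sided exact permutation test, p = 0.00649). Gene by gene, distal use was greater in cartilage for 1496 genes and lower for 820. It was over 20 points higher for 299 genes and over 20 points lower for 99, and the libraries lay wholly apart for 141 genes upwards (6.09%) and 48 downwards (2.07%). With at least 10 counts required at each site in every library, the difference was 5.49 points over 454 genes (two-sided exact permutation test, p = 0.00866).

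The difference had the same direction in each of 3 classes of site spacing and passed the threshold for spans of 1000 nt and more. Where a gene's tested sites spanned 1000 to 10000 nt (827 genes), the distal share was 28.7% ± 1.69 (SD, n = 6) in cartilage and 23.3% ± 1.77 (SD, n = 5) in synovium (two-sided exact permutation test, with p = 0.00216, or 0.00649 when adjusted over 3 classes). Over 10000 nt (1099 genes), the values were 11.8% ± 2.00 (SD, n = 6) and 8.34% ± 1.88 (SD, n = 5; two-sided exact permutation test, p = 0.0281, adjusted 0.0422). Under 1000 nt (391 genes), the values were 40.8% ± 2.51 (SD, n = 6) and 38.4% ± 1.85 (SD, n = 5), with 233 genes higher in cartilage and 158 lower. This difference of 2.37 points did not pass the threshold (two-sided exact permutation test, p = 0.110, adjusted 0.110). Whether the difference itself varies between these classes was not tested. Site number at equal depth ran alongside the distal share within synovium, where libraries 1, 5, 2, 4 and 3 held 88090, 77387, 67756, 63935 and 63239 sites at equal depth and stood in the same order by distal share. Cartilage showed no such order: cartilage 5 held the most sites (40246) with a distal share of 19.8%, cartilage 1 held 28356 with the highest share, 21.0%, and cartilage 4 held 29571 with the lowest, 16.6%. Between the tissues the order was opposite, with fewer sites and a higher distal share in cartilage. Whether site number bears on the distal share was not tested.

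In 1855 of these 2317 genes the most used matched site was the same in both tissues. In the others (19.9%) it differed, and the cartilage site was the more distal one in 327 and the more proximal one in 135, with a median of 7273 nt between the sites. In 35 of the 2317 genes every cartilage library used a different main site from every synovium library. The cartilage site was distal in 25 of these and proximal in 10. The sites compared could pass the count filter through the libraries of a single tissue. How often the main site differs between libraries of the same tissue is not given here to set beside these numbers. The share taken by the most used site itself was 76.3% ± 2.76 (SD, n = 6) in cartilage and 73.6% ± 1.66 (SD, n = 5) in synovium (median over genes; two-sided exact permutation test, p = 0.0996).

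The same tissue differences were then read in the old libraries, which share no sample with the young ones but were counted on the same site lists. Of the 869 genes called at matched sites in young, 832 were tested in old, and 812 (97.6%) had the same sign. In old, 310 of them were called in the same direction and 0 in the opposite one. Over all 7622 genes tested in old, 6.04% were called, 3.54% higher and 2.49% lower in cartilage, by the same edgeR test. Genes not called in young had the same sign in old for 70.5% of 6676. Of the 116 sites called in young, 77 were tested in old, 72 had the same sign, 31 were called in the same direction and 0 in the opposite one. Sites not called in young had the same sign in old for 67.3% of 6669. Over all 7375 sites tested in old, 1.11% were called, 0.515% higher and 0.597% lower.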

How the data were processed

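TRIzol and RNeasy columns were used to extract RNA from snap-frozen joint tissue, and QuantSeq-Reverse libraries were made from it, per the labels' protocols. The deposited values are raw, whole-number read counts for each 3′ site, in a separate table for cartilage and for synovium, per the file headers. The genome build is EquCab3.0 per the submitters' processing notes. The aligner, the counting and site-calling tools, the use of strand and any removal of duplicate reads are not given in the sources used here, so overlapping genes and gene copies are uncertain, and counting intervals and limits cover counting error only. No sample column was left out (0 unused), and neither table lists a mitochondrial chromosome, so that planned measure was not computed.

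Samples were grouped by title. The comparison, its members and the gene lists were chosen with earlier results of these data known. Site counts were summed per gene over all sites (the design set for the comparison) and over matched sites, and tested in R 4.3.3 by edgeR 4.0.16 (filterByExpr with a minimum count of 10 and minimum total of 15, TMM, robust quasi-likelihood fit, Benjamini-Hochberg adjustment, threshold 0.05), with tissue as the only term. Site use was tested with diffSpliceDGE. CPM values are TMM-scaled and computed here from the deposited counts, from all sites or matched sites as stated. Single values per library were compared by two-sided exact permutation tests over every regrouping of the libraries, whose smallest p is 0.00216. Genes are named where the adjusted p is under 0.05, the groups do not overlap, and the higher group has at least 10 CPM: the 2 largest log2 changes each way (651 genes met this at matched sites), the 5 most counted genes of each tissue, and for sites the 4 genes with the largest share differences among those called in both directions. Alternatives used DESeq2 1.42.0 and limma 3.58.1, other scalings and filters, and each library left out. The tests were also run on simulated data, the outcome of which is not given here. SciPy 1.17.1, pandas 2.3.3 and NumPy 2.4.6 under Python 3.11.15 gave the library measures, and Matplotlib 3.10.9 drew the figures. Depth limits shares at single sites, some of which rest on fewer than 50 counts per cartilage library.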

Additional observations from a re-analysis of the deposited data

Results flagged for a closer look

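In groups of 5 or 6 libraries, the highest or lowest library of a named gene or site was set against the rest of its group by Dixon's criterion. Of 56 groups examined 9 had such a value. About 2.8 by chance would hold for independent groups. These are not independent, as the distal and proximal shares of ENSECAG00000024205 are tied, so 9 and 2.8 cannot be set against each other. At matched sites, cartilage 4 stood apart for ENSECAG00000022313 with 23575 CPM, and synovium 1 for the same gene with 3.32 CPM. Synovium 4 stood apart for ENSECAG00000006095 with 756 CPM, and with all sites summed for ENSECAG00000031980 with 1594 CPM. Of the values, 3 are at or near 1 count: synovium 3 for ENSECAG00000014778 (0.376 CPM), synovium 1 for the gene at chr3:115005721-115005897 (0.237 CPM), and synovium 5 for the proximal site of ENSECAG00000020180 (0.562% of the counts). Cartilage 5 differed from the other cartilage libraries in ENSECAG00000024205, with 89.5% at the distal and 10.5% at the proximal site. No cause of these values was tested.

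Outside the comparison, genes listed in 1 table alone held 11.8% of the young counts in cartilage and 17.5% in synovium. Of these genes, 393 in cartilage and 641 in synovium had at least 1000 young counts, and their level in the other tissue was not analysed here.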

How the results depend on the processing

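On all sites the 1870 calls became 2943 with limma-voom (1143 higher, 1800 lower), 2824 with limma-voom with a weight per tissue (1170 higher, 1654 lower), 869 at matched sites and 973 with matched sites joined within 100 nt, both of which test fewer sites. With no filter on low counts, 1056 were higher and 1199 lower. At matched sites the 869 calls became 1416 with limma-voom with a weight per tissue, and ran from 608 to 917 with 1 library left out. On all sites leaving out 1 library gave 1518 to 1918. Of the 116 called sites, 31 were left with at least 10 counts in every library, 68 with sites matched 1 to 1 with 50% overlap, 680 with limma-voom diffSplice, and 65 to 165 with 1 library left out. The distal-share difference ran from 4.41 to 5.50 points with 1 library left out and was under 0.05 each time (two-sided exact permutation tests). The difference in counts on the 10 most counted genes, 3.68 points, lost its call in 7 of the 11 leave-outs (3.12 to 4.26 points), and that on the 100 most counted genes in 2 (5.02 to 6.97 points). The cause of these shifts was not tested.

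Whether replicate numbers shared between the tissues pair the samples cannot be told from the counts, as tissues of the same horse need not deviate alike. Correlations of same-numbered deviations ran from 0.00172 to 0.0773 and those of different numbers from -0.129 to 0.0801. Of 5 cartilage libraries, 1 correlated best with its own number. With the replicate block the called sites fell to 58, the calls at matched sites to 632 and the all-site calls to 1596. The paired differences, with the block, were 4.8 points for the distal share, -2386 genes, -39871 sites, 5.07 points for single-library sites and -3.00 points for matched sites, each at 0.0625, the smallest p that 5 sign flips allow by an exact test, and 3.22 points (0.188) and 5.02 points (0.125) for the 10 and 100 most counted genes. The block also ended the calls at both sites of ENSECAG00000005146 (adjusted p = 0.0667 and 0.0858, edgeR) and at the distal site of ENSECAG00000020180 (0.0667). For the counts and library measures, the alternatives not named here kept their direction and stayed within 1.5 times the count or on the same side of the threshold; losses for single genes and sites stand beside them in the report. Limits: gene symbols could not be assigned, sites listed for 1 tissue alone were not compared, and shares in cartilage in places rest on fewer than 50 counts.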
